A study of Mus musculus with 12 samples.

Results

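The integrated stress response was followed through 41 mouse genes, which were taken by symbol from a list of eIF2alpha kinases, Atf4 and its partner factors, and the amino acid enzymes, transporters and tRNA synthetases that ATF4 is known to induce. All 41 were found among the 24421 gene symbols of the deposited count tables. The cells were described as androgenetic haploid embryonic stem cells, a type with 1 set of chromosomes derived from sperm, on a C57BL/6 background. The counts used here do not show the ploidy of the harvested cells. RNA-seq libraries were available from 5 groups: wild-type OdG cells (2 libraries), OdG cells with an Etl4 knockout in a first line (line 1, 2 libraries) and in a second line (line 2, 2 libraries), wild-type EG1 cells (3 libraries) and EG1 cells with an Etl4 knockout (3 libraries). By its title the study asks how loss of Etl4 bears on keeping these cells haploid. The labels do not describe the edited allele, so each knockout group is 1 line whose knockout and clonal history cannot be told apart, and nothing in the labels says that replicate libraries came from separate cultures. The p-values therefore rest on library-to-library spread alone, and that spread may be technical.

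In the integrated stress response, kinases that each sense a different stress phosphorylate the translation factor eIF2alpha, which lowers protein synthesis in general while letting ribosomes translate the Atf4 message. ATF4 protein then switches on genes for amino acid synthesis and import, for charging tRNAs, and for feedback, including phosphatase subunits that remove the phosphate again. Because control runs through translation and phosphorylation, mRNA counts show the transcript side of this pathway and not the activity of the kinases or the amount of ATF4 protein.

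The Etl4 transcript itself was lower in every library labelled knockout. Its level in CPM, the read count scaled to the size of its library with the trimmed mean of M-values over all 12 libraries, averaged 207 in OdG wild type, 98.2 in line 1, 111 in line 2, 265 in EG1 wild type and 133 in EG1 knockout. On the log2 scale it fell by 1.07 ± 0.041 (SE) in line 1, by 0.89 ± 0.040 in line 2 and by 0.99 ± 0.036 in EG1, with adjusted p of 7.9e-13, 4.4e-12 and 7.8e-20 from edgeR's quasi-likelihood test with Benjamini-Hochberg adjustment. Library totals lay between 16110028 and 19706599 counts. All 10 pluripotency markers examined were above 1 CPM in every library, with a summed level of 7375 to 7442 CPM in OdG wild type, 8249 to 8340 in line 1, 7788 to 7815 in line 2, 9408 to 9539 in EG1 wild type and 9324 to 9575 in EG1 knockout. Of 10 fibroblast markers, 4 or 5 were above 1 CPM: Postn had at most 1 count and Col3a1 at most 3 counts in any library. Their summed level was 46.1 to 52.2 CPM in OdG wild type, 33.2 to 34.4 in line 1, 19.6 to 22.6 in line 2, and 20.2 to 23.1 over both EG1 groups. The sum of 10 primitive endoderm markers was 1001 to 1043 CPM in OdG wild type, 881 to 893 in line 1, 546 to 557 in line 2, 960 to 969 in EG1 wild type and 1030 to 1080 in EG1 knockout. The sum of 8 trophoblast markers was higher in the OdG lines, with 235 to 237 CPM in wild type, 309 to 313 in line 1 and 277 to 293 in line 2. It was 103 to 110 in EG1 wild type and 108 to 114 in EG1 knockout. The line 2 rise lay in Tfap2c, which averaged 0.38 CPM in OdG wild type, 10.3 in line 1 and 111 in line 2. From OdG wild type to line 2, Krt8 fell from 88.5 to 48.0 CPM, Krt18 from 44.1 to 27.9 and Ascl2 from 12.2 to 6.79. From OdG wild type to line 1, Ascl2 fell from 12.2 to 4.47 CPM and Eomes from 5.41 to 1.56. Cdx2, Krt8, Krt18 and Tfap2c were higher in line 1 at an adjusted p below 0.05. The sum of 5 mesoderm markers was 75.7 to 82.7 CPM in OdG wild type and 64.9 to 72.1 over both OdG lines. Both EG1 groups lay at 13.8 to 17.4. For 5 neural ectoderm markers the sum was 35.3 to 36.9 CPM in OdG wild type. It was 32.2 to 34.9 in line 1, 25.9 to 27.2 in line 2 and 27.6 to 34.2 over both EG1 groups. The pluripotency and trophoblast sums were thus higher in both OdG lines than in their wild type. The fibroblast, primitive endoderm, mesoderm and neural ectoderm sums were lower in both. In EG1 knockout the primitive endoderm sum was higher than in EG1 wild type, and Col4a1, Col4a2 and Lama1 were higher at an adjusted p below 0.05. The part of these shifts in the results below was not tested. Single markers did not all follow their sum. Tdgf1, a pluripotency marker, changed by -0.46 in line 1 and -0.72 in line 2 on the log2 scale. In line 1 Pdgfrb was the only fibroblast marker changed at an adjusted p below 0.05 (30.3 to 15.2 CPM). By that threshold, Sparc, Lama1 and Gata6 were lower in line 1, Col4a2 was higher (0.16), and no other primitive endoderm marker passed. In line 2 Col1a1 and Pdgfrb were lower but Fbn1 higher (0.69). No neural ectoderm marker passed in line 1, and of the mesoderm markers only Eomes did. In line 2 only Nes and T passed from these lists, both lower. In bulk libraries fewer cells of a type and less RNA per cell cannot be told apart.

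Sequences are shown first because 9 members carry, in the 250 bases before an annotated start, the core of the element that C/EBP-ATF dimers bind, and these 9 include members that moved in opposite ways. Promoters of 34 of the 41 members were matched by symbol in the RefSeq table for GRCm38.p6 (mm10). A symbol can have several starts there (32851 starts for 27025 symbols), and a match before any of them counted. The shares below are not adjusted for the number of starts. The letters searched were TGATGNAA on both strands, where N is any base. They were found for 9 of the 34 members (26.5%) and for 1056 of all 27025 symbols (3.91%). A match is a description of the letters and neither a bound site nor a cause. Each line gives the match in capitals with up to 20 bases on either side, 5′ to 3′ on the gene's own strand.
Chac1, chr2:119351029-119351076, plus strand: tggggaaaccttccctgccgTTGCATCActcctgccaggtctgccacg
Atf3, chr1:191183416-191183463, minus strand: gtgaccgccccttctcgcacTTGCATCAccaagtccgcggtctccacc
Nupr1, chr7:126625553-126625600, minus strand: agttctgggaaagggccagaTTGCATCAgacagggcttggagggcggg
Vldlr, chr19:27216800-27216847, plus strand: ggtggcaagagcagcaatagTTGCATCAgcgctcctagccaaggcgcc
Aars, chr8:111033710-111033757, plus strand: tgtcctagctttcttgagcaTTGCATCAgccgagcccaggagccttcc
Asns, chr6:7693210-7693252, minus strand: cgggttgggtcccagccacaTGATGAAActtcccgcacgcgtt
Slc7a11, chr3:50443652-50443699, minus strand: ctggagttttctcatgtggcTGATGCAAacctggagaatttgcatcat

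Chac1, Atf3, Nupr1, Vldlr and Aars hold the same 8 letters, read on the opposite strand, at 193, 110, 110, 200 and 112 bases before the start in question. The Asns match begins 23 bases before its start. The printed stretches of Atf3, Nupr1, Vldlr, Aars and Asns lie inside the annotated span of their gene, so these starts are not the outermost ones. Slc7a11 has a pair of matches, at 66 and 47 bases before its start, the second in lower case at the end of its line. The remaining matches were in Gars and Pck2. The palindrome TGACGTCA, the cAMP response element to which ATF and CREB factors bind, was found in the same window of 1 of the 34 members, Ppp1r15a, and of 478 of the 27025 symbols (1.77%).

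In EG1 cells every member that was called moved upward: 26 of the 40 members tested were higher in the Etl4 knockout (65%) and 0 were lower at an adjusted p below 0.05, the threshold for a call throughout. Over all 14016 genes tested in that comparison, 7.66% were called, 3.6% as higher and 4.06% as lower. The median change of the members was 0.20 on the log2 scale and that of all genes 0.00. Changes of at least 1.5-fold were called for 4 members, namely Atf4, Atf3, Trib3 and Chac1, all higher. By that rule 1.43% of all genes were called, 0.314% as higher and 1.11% as lower. Slc7a11 had too few counts in EG1 to be tested. By edgeR 0 members were lower at an unadjusted p below 0.05 as well, DESeq2 called 25 higher and 0 lower, and each fit without 1 library called 0 lower. The lowest of the 40 fitted changes was -0.06 (Eif2ak2).

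In OdG cells members were called in both directions. Line 1 had 23 members higher (56.1%) and 9 lower (22%) than OdG wild type, against a background in which 52.8% of 14413 genes were called, 26.8% as higher and 26.1% as lower. Line 2 had 22 higher (53.7%) and 10 lower (24.4%), with 59.9% of all genes called, 30% as higher and 29.8% as lower. Both lines were set against the same 2 wild-type libraries, so these counts are not independent of each other. The median member change was 0.18 in line 1 and 0.12 in line 2, with -0.01 for all genes in both. At 1.5-fold or more, 4 members were higher and 4 lower in line 1, where 4.26% and 12.3% of all genes were called, and 5 and 5 in line 2, where 9.11% and 14.5% were called.

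**Figure D1:**
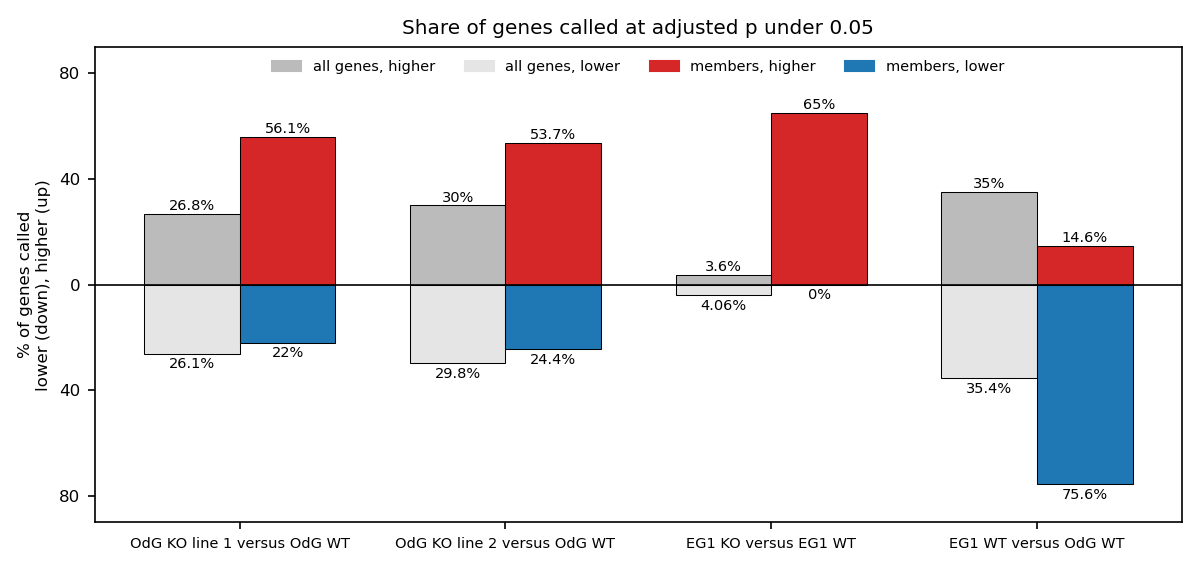
Bars give the share of genes, in percent, called higher (upward) or lower (downward) at an adjusted p below 0.05, for all genes tested (grey) and for the members (red and blue), in 4 comparisons. In EG1 knockout 65% of the members and 3.6% of all genes were higher, while in the OdG lines the members' lower calls, 22% and 24.4%, stood beside 26.1% and 29.8% for all genes.

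The 4 eIF2alpha kinases were not called in EG1, where 0 passed with edgeR even unadjusted and 0 with DESeq2. Each OdG line had 1 kinase higher and 1 lower, which is 50% called. Of all genes 7.66% were called in EG1, 52.8% in line 1 and 59.9% in line 2, so these counts are near the background. Eif2ak1, the heme-regulated kinase that also relays mitochondrial stress, stood at 49.9 and 47.2 CPM in OdG wild type, 72.4 and 69.0 in line 1, 67.3 and 71.7 in line 2, 59.1, 60.7 and 62.4 in EG1 wild type, and 64.7, 65.1 and 64.6 in EG1 knockout. Both OdG lines lay above their wild type with no overlap, and the EG1 groups were separated by a narrow gap. The log2 change was 0.55 ± 0.056 (adjusted p 3.2e-07) in line 1, 0.53 ± 0.057 (3.5e-07) in line 2 and 0.09 ± 0.048 (0.27) in EG1. Eif2ak1 overlaps Aimp2 over 487 exonic bases on the other strand, and the strand setting of the counting is not given in the sources used here, so reads of the pair may not be told apart.

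Eif2ak4, the kinase that senses uncharged tRNAs when amino acids run short, went the other way in OdG. Its levels were 83.3 and 79.1 CPM in OdG wild type, 61.6 and 61.7 in line 1, 67.6 and 67.4 in line 2, 62.0, 63.6 and 67.3 in EG1 wild type, and 65.0, 63.2 and 63.1 in EG1 knockout. The OdG wild-type libraries were the only ones near 80 CPM, and the EG1 groups overlapped. It fell by 0.39 ± 0.048 (adjusted p 2.7e-06) in line 1 and by 0.26 ± 0.048 (0.00017) in line 2, while the EG1 change was -0.01 ± 0.049 (0.91).

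The other two kinases were not called in any knockout comparison. Eif2ak2, which is activated by double-stranded RNA, was at 33.2 and 32.8 CPM in OdG wild type, 29.1 and 30.4 in line 1, 29.3 and 30.1 in line 2, 42.5, 43.2 and 41.4 in EG1 wild type, and 39.8, 43.6 and 39.0 in EG1 knockout. Eif2ak3, the kinase of the endoplasmic reticulum, was at 27.1 and 28.4 CPM in OdG wild type, 26.8 and 26.4 in line 1, 28.8 and 29.2 in line 2, 37.8, 35.6 and 35 in EG1 wild type, and 36.3, 32.9 and 36.7 in EG1 knockout. For both, the EG1 groups overlapped, and the larger step was between parental lines: both EG1 groups lay above all OdG libraries.

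The phosphatase subunits that steer eIF2alpha dephosphorylation were lower or not called. Ppp1r15a, the stress-induced subunit and a target of the pathway, was at 69.0 and 66.3 CPM in OdG wild type, 53.3 and 50.4 in line 1, 40.3 and 44.1 in line 2, 26.2, 27.4 and 28.7 in EG1 wild type, and 31.6, 28.1 and 27.8 in EG1 knockout. The OdG groups formed 3 separate steps with line 2 lowest, and the EG1 groups overlapped. Ppp1r15a fell by 0.38 ± 0.059 (adjusted p 3.7e-05) in line 1 and by 0.67 ± 0.061 (4.2e-08) in line 2, and its EG1 change was 0.09 ± 0.068 (0.51). Ppp1r15b, the constitutive subunit, was at 266 and 267 CPM in OdG wild type, 269 and 262 in line 1, 248 and 254 in line 2, 208, 211 and 206 in EG1 wild type, and 230, 220 and 223 in EG1 knockout. Its EG1 groups did not overlap, and the change of 0.11 ± 0.035 had an adjusted p of 0.057.

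Atf4, the central transcription factor, rose in EG1 knockout. It lies at chr15:80255184-80257541 on the plus strand of GRCm38. Its level was 206, 215 and 219 CPM in EG1 wild type and 327, 324 and 326 in EG1 knockout, against 250 and 256 in OdG wild type, 269 and 265 in line 1, and 271 and 271 in line 2. The EG1 knockout libraries were the highest of all 12 and the EG1 wild-type libraries the lowest. The EG1 change was 0.60 ± 0.035 (1.52-fold, adjusted p 4.7e-14), while the OdG changes were 0.08 ± 0.034 (0.053) in line 1 and 0.11 ± 0.034 (0.012) in line 2. The line 2 call was lost without either line 2 library (adjusted p 0.0591 and 0.0664), and with library totals alone (0.053). The line 1 change passed without the second OdG wild-type library (0.0176), with RLE size factors (0.0494) and with no filter on low counts (0.0433). The EG1 change exceeded the mean of the OdG changes by 0.52 ± 0.045 (1.5e-10).

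**Figure D2:**
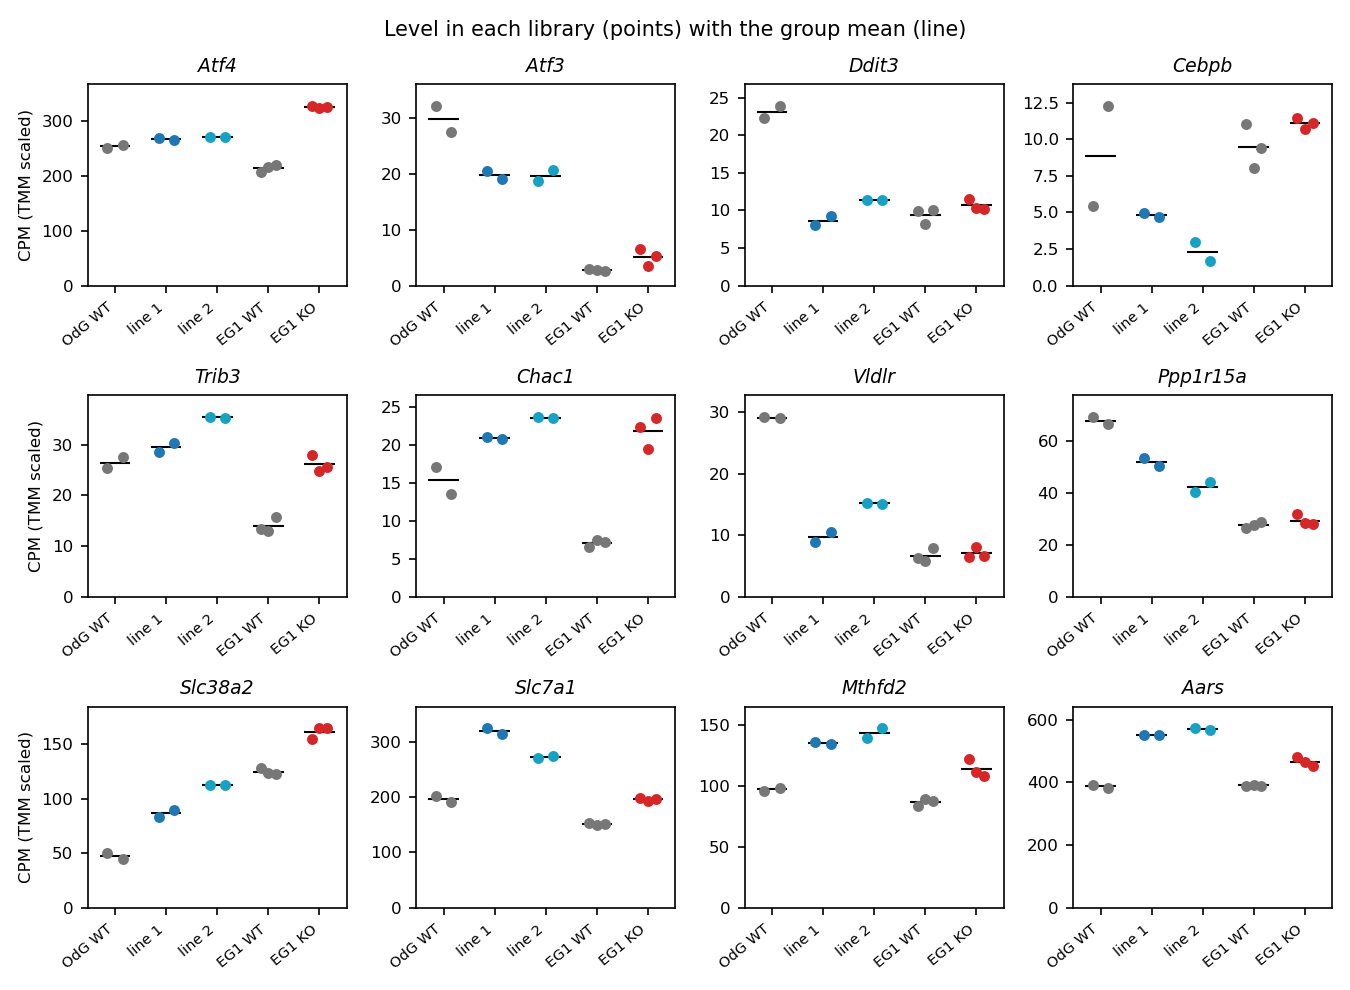
Each panel shows the level of 1 gene in CPM (vertical axis, from 0) in each library (points) with the group mean (line) for the 5 groups. Atf4 is highest in the 3 EG1 knockout libraries (324 to 327 CPM), Ddit3 and Vldlr are highest in the OdG wild-type libraries, and Slc38a2 is above 80 CPM in every library except the 2 of OdG wild type.

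Atf3 was called in opposite directions in the parental lines. This ATF4-induced factor, which can repress or activate stress genes, was at 32.1 and 27.4 CPM in OdG wild type, 20.5 and 19.1 in line 1, and 18.6 and 20.6 in line 2. In EG1 it was far lower, at 3.01, 2.71 and 2.60 CPM in wild type and 6.61, 3.50 and 5.20 in knockout. Knockout and wild-type libraries did not overlap in either parental line. Atf3 fell by 0.58 ± 0.094 (adjusted p 5.3e-05) in line 1 and by 0.59 ± 0.094 (3.7e-05) in line 2, and rose by 0.88 ± 0.19 (0.0025) in EG1. The difference between the EG1 change and the mean OdG change was 1.47 ± 0.21 (9.8e-07).

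Ddit3, which encodes the factor CHOP that turns a prolonged stress response towards cell death, fell in both OdG lines. Its level was 22.3 and 23.9 CPM in OdG wild type, 8.02 and 9.20 in line 1, 11.4 and 11.4 in line 2, 9.98, 8.24 and 10.1 in EG1 wild type, and 11.5, 10.4 and 10.2 in EG1 knockout. Only the OdG wild-type libraries were above 12 CPM. Ddit3 shares 68 exonic bases with the opposite-strand gene Mars. Line 1 kept 37.3% and line 2 49.7% of the wild-type level, with log2 changes of -1.42 ± 0.11 (adjusted p 5.5e-09) and -1.01 ± 0.10 (1.4e-07). The EG1 groups were separated by a narrow gap, and the change of 0.17 ± 0.11 (0.38) was not called.

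Cebpb, a C/EBP factor that pairs with ATF4 on its response elements, was read from few counts and its OdG wild-type libraries disagreed. They stood at 5.42 and 12.3 CPM, against 4.95 and 4.67 in line 1, 2.95 and 1.66 in line 2, 11.1, 8.02 and 9.42 in EG1 wild type, and 11.4, 10.7 and 11.1 in EG1 knockout. Line 2 was below every other library, and the first OdG wild-type library was close to line 1. The changes were -0.87 ± 0.28 (adjusted p 0.014) in line 1 and -1.94 ± 0.32 (5.1e-05) in line 2. Without the second wild-type library they were -0.16 and -1.23, and only the line 1 call was lost. The line 1 call was also lost without either line 1 library and with DESeq2 (0.225). Cebpb shares 312 exonic bases with Tmem189 on the other strand.

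The remaining factors were moderately expressed and differed by line. Trib3, a pseudokinase that feeds back on ATF4 and CHOP, has its levels given here although it was singled out after its values were seen: 13.3, 12.9 and 15.7 CPM in EG1 wild type, 27.9, 24.9 and 25.6 in EG1 knockout, 25.4 and 27.6 in OdG wild type, 28.6 and 30.4 in line 1, and 35.5 and 35.4 in line 2. No knockout library overlapped its own wild type. The rise was 0.90 ± 0.082 (1.86-fold, adjusted p 1.9e-09) in EG1 and 0.43 ± 0.076 (0.00011) in line 2, and the change in line 1 was 0.16 ± 0.078 (0.097), or 0.22 (0.0499) without the second OdG wild-type library. Atf5, a factor translated like Atf4, rose by 0.58 in line 1 and 0.53 in EG1 and had a change of -0.10 (adjusted p 0.31) in line 2. Nupr1, a small stress-induced chromatin protein, fell by 0.32 in line 2, rose by 0.37 in EG1 and had a change of 0.03 (0.66) in line 1. Cebpg, another C/EBP partner of ATF4, was called only in line 1, at -0.22 (0.041). That call was lost without the second OdG wild-type library or either line 1 library, and with DESeq2 (0.135).

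Most enzymes of amino acid and one-carbon metabolism rose in each knockout group. Of 10 enzymes, 9 were higher and 0 lower in line 1, 7 higher and 1 lower in line 2, and 9 higher and 0 lower in EG1, with median changes of 0.28, 0.26 and 0.27. Of all genes 26.8% were higher and 26.1% lower in line 1, 30% and 29.8% in line 2, and 3.6% and 4.06% in EG1. None of the enzymes reached 1.5-fold except Cth in line 2.

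Mthfd2, the mitochondrial folate enzyme that supplies one-carbon units, was at 96.2 and 98.1 CPM in OdG wild type, 136 and 134 in line 1, 139 and 148 in line 2, 83.1, 89.4 and 87.3 in EG1 wild type, and 122, 111 and 109 in EG1 knockout. Every knockout library was above 100 CPM and every wild-type library below it. Mthfd2 rose by 0.48 ± 0.042 (adjusted p 4.6e-08) in line 1, 0.57 ± 0.042 (2.9e-09) in line 2 and 0.39 ± 0.046 (2.1e-07) in EG1. The EG1 and OdG changes differed by -0.12 ± 0.062 (0.11), and the 95% interval of that difference ran from -0.27 to 0.02. Without the first EG1 knockout library it was called, at -0.18 (0.00976).

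Psat1, the transaminase of the serine pathway, was at 425 and 419 CPM in OdG wild type, 581 and 571 in line 1, 558 and 558 in line 2, 368, 374 and 363 in EG1 wild type, and 449, 457 and 452 in EG1 knockout. Wild-type and knockout libraries of each parental line were well separated, with rises of 0.45 ± 0.030, 0.41 ± 0.030 and 0.30 ± 0.032 and adjusted p of 1.2e-09, 2.3e-09 and 4.1e-08. The other serine enzymes moved less: Phgdh, which commits glycolytic carbon to serine, rose by 0.25, 0.32 and 0.17, and Psph, which completes serine and shares 452 exonic bases with Cct6a on the other strand, by 0.28, 0.21 and 0.20. The EG1 call of Psph was lost with DESeq2 (0.0517) and in 4 of the fits that left out 1 library. Shmt2, which turns serine into glycine in mitochondria, was lower in line 2 at -0.12 (0.0882 without the second line 2 library) and not called in line 1 (-0.06) or EG1 (0.09).

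Cth, the enzyme that makes cysteine by transsulfuration, was at 62.0 and 59.6 CPM in OdG wild type, 82.8 and 83.8 in line 1, 121 and 114 in line 2, 81.4, 79.9 and 83.6 in EG1 wild type, and 107, 105 and 107 in EG1 knockout. Line 1 reached the level of EG1 wild type, and line 2 lay above EG1 knockout. Cth rose by 0.46 ± 0.049 (adjusted p 4.3e-07) in line 1, 0.96 ± 0.047 (1.2e-11) in line 2 and 0.38 ± 0.042 (8.6e-08) in EG1. Aldh18a1, the first enzyme of proline synthesis, rose by 0.28, 0.22 and 0.30, and Gpt2, a mitochondrial alanine transaminase, by 0.18, 0.30 and 0.23. Pck2, the mitochondrial PEP carboxykinase, rose by 0.42 in line 1 and 0.45 in EG1 but had a change of 0.03 (0.56) in line 2.

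Asns, asparagine synthetase, was the most abundant member per kilobase of exon in both wild types, at 497 CPM per kb in OdG and 349 in EG1. Its changes were among the smallest: 0.08 (adjusted p 0.015) in line 1, -0.03 (0.31) in line 2 and 0.14 (0.001) in EG1. The line 1 call was lost without either line 1 library, with DESeq2 (0.0526) and with library totals alone (0.576). For comparison, Atf4 averaged 107 and 90.6 CPM per kb in the OdG and EG1 wild types, and Slc7a11, the lowest member, 0.076 and 0.024.

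Chac1, an ATF4 target that degrades glutathione, had the largest rise of any gene tested in EG1 knockout, ranking first of 14016. The gene lies at chr2:119351229-119354381. Its level was 6.46, 7.45 and 7.13 CPM in EG1 wild type and 22.3, 19.4 and 23.5 in EG1 knockout, and 17.1 and 13.6 in OdG wild type, 21.0 and 20.7 in line 1, and 23.6 and 23.5 in line 2. All knockout libraries lay between 19.4 and 23.6 CPM, and the wild types differed, with EG1 lower. Chac1 rose by 1.63 ± 0.099 (3.09-fold, adjusted p 1.1e-13) in EG1, by 0.45 ± 0.10 (0.0015) in line 1 and by 0.63 ± 0.10 (3.9e-05) in line 2. Without the second OdG wild-type library the line 1 rise was 0.295 on the log2 scale and was still called (adjusted p 0.0281). The EG1 rise exceeded the mean OdG rise by 1.10 ± 0.14 (1.7e-07).

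Vldlr, a lipoprotein receptor that ATF4 can induce, fell in OdG while Chac1 rose, and both promoters hold the core letters printed above. Its level was 29.2 and 29.1 CPM in OdG wild type, 8.88 and 10.6 in line 1, 15.3 and 15.1 in line 2, 6.24, 5.82 and 7.84 in EG1 wild type, and 6.38, 8.14 and 6.54 in EG1 knockout. The OdG groups did not overlap, whereas the EG1 groups did. Vldlr fell by 1.58 ± 0.099 (adjusted p 5.8e-10) in line 1 and by 0.93 ± 0.092 (1.2e-07) in line 2, and its EG1 change was 0.07 ± 0.14 (0.81). Stc2, a secreted glycoprotein of the stress response, fell by 0.59 (4.8e-06) in line 1 and was not called in line 2 at -0.18 (0.05) or in EG1 at 0.08 (0.64).

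**Figure D3:**
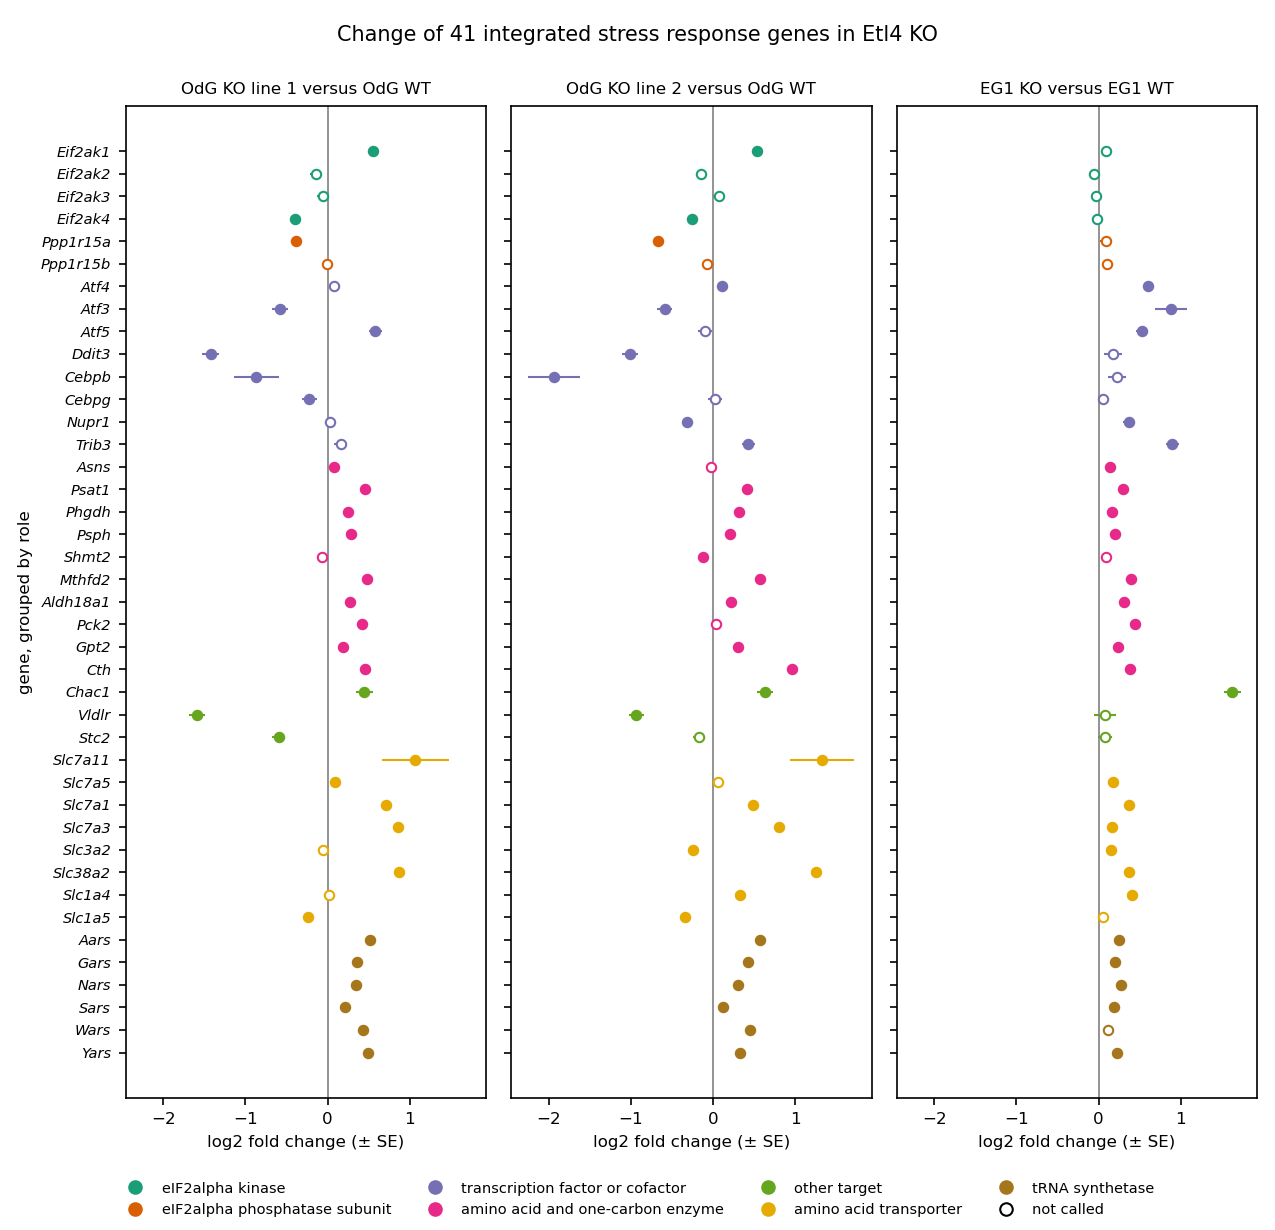
Each row is 1 of the 41 members, coloured by role, and each point is the log2 fold change of knockout against wild type with its standard error (horizontal axis), filled where called. In EG1 all filled points lie to the right of 0, with Chac1 at 1.63, and in the OdG lines Ddit3, Cebpb and Vldlr lie farthest to the left.

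Among the amino acid transporters, Slc7a1, Slc7a3 and Slc38a2 rose in all 3 knockout groups, and Slc1a5 fell in both OdG lines. Of 8 transporters, 5 were higher and 1 lower in line 1 and 5 higher and 2 lower in line 2. In EG1, 6 of the 7 tested were higher and 0 lower. The shares called, 75%, 87.5% and 85.7%, stood beside 52.8%, 59.9% and 7.66% of all genes.

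Slc38a2, the small neutral amino acid carrier that cells raise when amino acids run short, was at 50.1 and 45.0 CPM in OdG wild type, 83.6 and 89.8 in line 1, 112 and 113 in line 2, 128, 124 and 123 in EG1 wild type, and 155, 165 and 165 in EG1 knockout. Each group stood apart from the others, in that order. Slc38a2 rose by 0.87 ± 0.056 (1.83-fold, adjusted p 8.1e-10) in line 1, 1.25 ± 0.054 (2.39-fold, 2.6e-12) in line 2 and 0.37 ± 0.039 (1.29-fold, 2.4e-08) in EG1. Here the EG1 rise was the smaller, with a difference of -0.68 ± 0.064 (4.9e-10) from the mean OdG rise.

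Slc7a1, the main arginine and lysine carrier, was at 202 and 191 CPM in OdG wild type, 326 and 316 in line 1, 272 and 274 in line 2, 153, 150 and 152 in EG1 wild type, and 199, 194 and 198 in EG1 knockout. Line 1 was the highest group, and EG1 knockout reached the level of OdG wild type. The rises were 0.71 ± 0.038 (adjusted p 6.7e-11), 0.48 ± 0.038 (6.2e-09) and 0.37 ± 0.036 (5.2e-09). Slc7a3, a second cationic carrier, rose by 0.85 and 0.81 in the OdG lines and by 0.16 in EG1, and the difference of the EG1 rise from the mean OdG rise was -0.66 ± 0.048 (1.9e-12).

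Slc7a11, the cystine carrier that feeds glutathione synthesis, was close to the limit of counting. Its level was 0.404 and 1.71 CPM in OdG wild type, 2.58 and 1.77 in line 1, 2.47 and 2.77 in line 2, 0.397, 0.339 and 0.255 in EG1 wild type, and 0.689, 0.458 and 0.876 in EG1 knockout. The second OdG wild-type library was nearly level with the second library of line 1. The fitted changes of 1.06 ± 0.41 (adjusted p 0.037) in line 1 and 1.33 ± 0.40 (0.0079) in line 2 rested on the first OdG wild-type library: without it they were 0.37 (0.398) and 0.63 (0.112), and without the second they were 2.43 and 2.69. The line 1 call was also lost without the first line 1 library and with DESeq2 (0.0936), and the line 2 call without the second line 2 library.

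The remaining transporters changed by less than 1.5-fold in the knockout comparisons. Slc1a5, a glutamine carrier, fell by 0.24 in line 1 and by 0.34 in line 2 and was not called in EG1 at 0.06. Slc1a4, a neutral amino acid exchanger, rose by 0.33 in line 2 and 0.40 in EG1, with 0.02 (adjusted p 0.76) in line 1. Slc3a2, the heavy chain that Slc7a5 and Slc7a11 need at the membrane, fell by 0.24 in line 2 and rose by 0.16 in EG1, a call lost without the first EG1 wild-type library (0.0596). Slc7a5, the leucine carrier, rose by 0.09 in line 1 (0.029) and by 0.18 in EG1, and its line 2 change was 0.06 (0.12). The line 1 call was lost without either line 1 library, with DESeq2 (0.0858), with library totals alone (0.462) and in the fit of all 12 libraries (0.0636).

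All 6 tRNA synthetases were higher in both OdG lines and 5 of the 6 were higher in EG1, where 26.8%, 30% and 3.6% of all genes were higher in line 1, line 2 and EG1. Aars, which charges alanine, was at 393 and 381 CPM in OdG wild type, 552 and 552 in line 1, 574 and 566 in line 2, 390, 392 and 389 in EG1 wild type, and 482, 465 and 452 in EG1 knockout. The wild types stood at about 390 CPM, and the OdG lines stood above EG1 knockout. Aars rose by 0.52 ± 0.030 (adjusted p 2.9e-10), 0.57 ± 0.030 (4.4e-11) and 0.25 ± 0.033 (1.4e-06). Its exons share 1326 bases with Exosc6 on the same strand, and how reads there were assigned is not given in the sources used here.

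Nars, which charges asparagine, was at 415 and 426 CPM in OdG wild type, 532 and 534 in line 1, 518 and 515 in line 2, 331, 329 and 326 in EG1 wild type, and 383, 408 and 396 in EG1 knockout. No knockout library overlapped its wild type, and the rises were 0.34 ± 0.030, 0.31 ± 0.030 and 0.27 ± 0.033 with adjusted p of 4.6e-08, 1.4e-07 and 7.7e-07. The glycine, serine and tyrosine enzymes Gars, Sars and Yars rose by 0.36, 0.21 and 0.49 in line 1, by 0.42, 0.12 and 0.33 in line 2, and by 0.20, 0.19 and 0.22 in EG1. The line 2 call of Sars was lost without the first line 2 library (0.0518). Wars, the tryptophan enzyme, rose by 0.44 in each OdG line and had an EG1 change of 0.12 (0.14), with overlapping EG1 groups. The EG1 rise was smaller than the mean OdG rise for 4 synthetases, with called differences of -0.28 for Aars, -0.31 for Wars, -0.19 for Gars and -0.18 for Yars.

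The difference between parental lines went different ways in different roles. The EG1 change minus the mean OdG change was called for 29 of 41 members, 19 positive and 10 negative, with 39.8% of 14977 genes called, 19.5% positive and 20.2% negative. Transcription factors and cofactors held 7 positive calls of 8 and 0 negative, and the phosphatase subunits and the other targets Chac1, Vldlr and Stc2 were positive in 5 of 5. Synthetases held 4 negative calls of 6 and 0 positive. The enzymes were split, with 3 positive, 2 negative and 5 not called, and so were the transporters, with 3 positive, 3 negative and 2 not called. For Cebpb (1.63 ± 0.27, adjusted p 1.4e-05), Ddit3 (1.40 ± 0.14, 1.5e-09) and Vldlr (1.34 ± 0.16, 4.9e-08) the positive difference came with a fall in OdG and a change that was not called in EG1. At 1.5-fold or more, 7 members were positive and 2 negative (Slc7a3 and Slc38a2), where 8.51% and 4.91% of all genes were called. Without the second OdG wild-type library the Cebpb difference was 0.93 (0.0035).

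**Figure D4:**
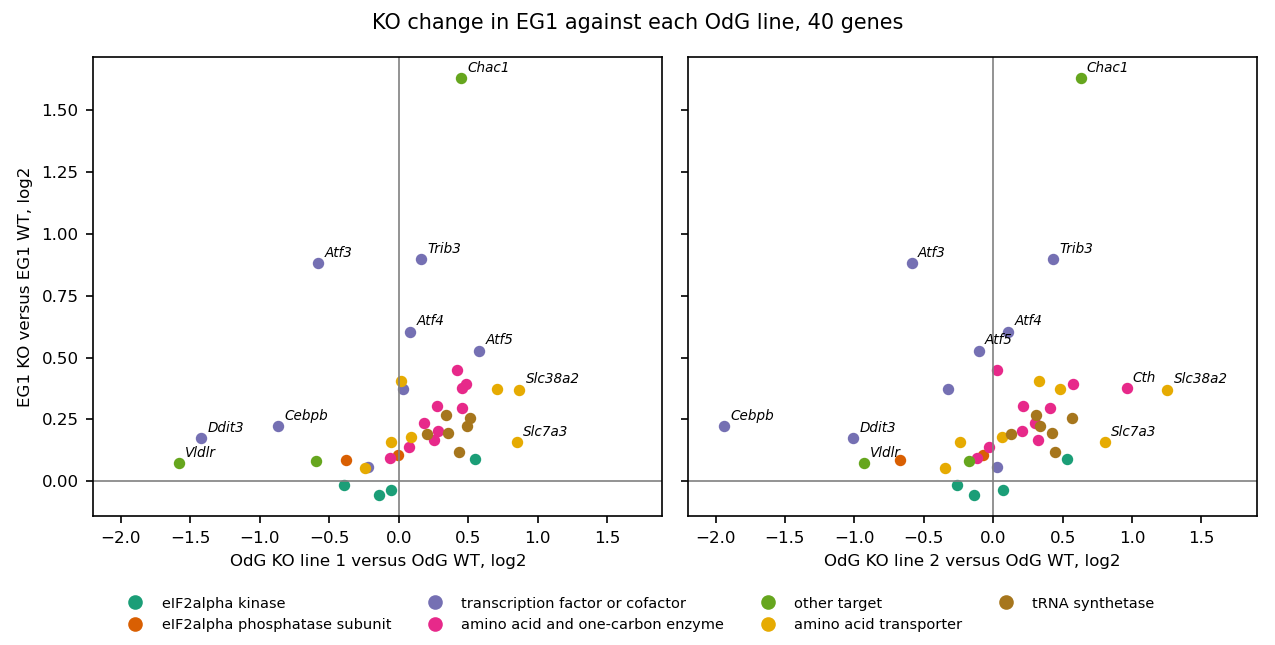
For the 40 members tested in EG1, the log2 change in EG1 knockout (vertical axis) is plotted against the log2 change in OdG line 1 (left) and line 2 (right), coloured by role. Ddit3, Cebpb and Vldlr lie at the left near 0 on the vertical axis, Chac1 lies at the top at 1.63, and Atf3 is below 0 in OdG and above 0 in EG1.

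The OdG knockout lines also differed from each other, in 20 of 41 members (48.8%), where 37.8% of all genes were called. In line 2, 10 members were higher and 10 lower (24.4% each), beside 18.6% and 19.2% of all genes. At 1.5-fold or more the member share was 7.32%, below the 12.6% of all genes. Changes of at least 1.5-fold were called for 3 members, 1 higher and 2 lower, beside 7.89% and 4.73% of all genes: Vldlr was higher in line 2 by 0.65 ± 0.11 (adjusted p 0.00014), and Atf5 was lower by -0.69 ± 0.081 (3.2e-06) and Cebpb by -1.07 ± 0.36 (0.025). The Cebpb call was lost with DESeq2 (0.194) and without either line 1 library or the second line 2 library (0.0657 to 0.261). Cth was higher in line 2 by 0.50 ± 0.045 (1.0e-07), Slc38a2 by 0.39 ± 0.050 (8.9e-06) and Slc1a4 by 0.32 ± 0.042 (1.3e-05), while Pck2 was lower by -0.39 ± 0.041 (7.5e-07). The count was 13 to 14 when any 1 library of these lines was left out, and 13 with DESeq2. Only 1 of the 6 synthetases, Yars, was called between the lines, at -0.16 ± 0.039 (0.0042), and it was lost without the second library of either line (0.0513 and 0.0942).

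The wild types themselves differed, and most members were lower in EG1. Of the 41 members, 31 were lower and 6 higher in EG1 wild type than in OdG wild type (75.6% and 14.6%), with a median of -0.37, where 70.3% of all genes were called, 35.4% as lower and 35% as higher. Parental line and deposited table cannot be told apart in this comparison. Markers of other cell types moved with it: the trophoblast sum was 235 to 237 CPM in OdG and 103 to 110 in EG1 wild type, and the mesoderm sum 75.7 to 82.7 and 15.4 to 17.4. Cdx2 averaged 83.1 and 1.23 CPM, Krt8 88.5 and 3.34, and T 70.8 and 4.16. Krt18, Ascl2 and Eomes were also called lower in EG1 wild type. Other markers of the same lists were called higher there. These were the trophoblast markers Tfap2c (0.38 and 87.5 CPM) and Gata3 (log2 change 0.82), and the mesoderm markers Gsc (1.52) and Mixl1 (0.84). Tfap2c made up most of the EG1 wild-type trophoblast sum. The part of all these markers in the members' difference was not tested. Atf3 was lower by -3.42 ± 0.14 (adjusted p 1.4e-19), Vldlr by -2.13 ± 0.11 (3.0e-17), Nupr1 by -1.59 ± 0.070 (6.7e-19), Slc1a4 by -1.34 ± 0.051 (2.1e-20) and Ppp1r15a by -1.30 ± 0.064 (1.3e-17). The 6 higher members were the kinases Eif2ak1, Eif2ak2 and Eif2ak3, the enzyme Cth and the carriers Slc38a2 and Slc7a3. Of these, Slc38a2 stood 1.39 ± 0.051 (6.1e-21) and Slc7a3 0.87 ± 0.038 (4.0e-19) above OdG wild type. Both also rose in the OdG knockout lines, which share those wild-type libraries.

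Groups that do not overlap were common among all genes of this series. Knockout and wild type did not overlap for 39 of 41 members in line 1 and 38 in line 2, beside 75.3% and 79% of all genes. In EG1 they did not overlap for 31 of 40 members, beside 25.1% of all genes.

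Other genes of the pathway were read from lists around the members. Of 40 further ATF4 targets, 38 could be tested: 16 were higher and 10 lower in line 1, 15 and 13 in line 2, and 17 and 4 in EG1, with medians of 0.09, -0.09 and 0.12. The lower calls in OdG, 26.3% and 34.2%, were near the 26.1% and 29.8% of all genes, and those in EG1, 10.5%, stood beside 4.06%. The higher calls, 42.1%, 39.5% and 44.7%, stood beside 26.8%, 30% and 3.6%. In EG1 the largest called changes were rises of Herpud1, which serves degradation at the endoplasmic reticulum (11.9 to 22.8 CPM, 0.93 ± 0.084, adjusted p 1.2e-09), and of the glycine transporter Slc6a9 (4.53 to 7.58 CPM, 0.74 ± 0.14, 0.0004), a rise of the collagen receptor Ddr2 (0.59), and a fall of Ndufa4l2 (10.9 to 5.61 CPM, -0.95 ± 0.12, 1.6e-06). Ndufa4l2, a mitochondrial protein better known as a hypoxia target, showed the largest fall of the list in OdG, from 23.0 CPM in wild type to 1.38 in line 1 and 2.85 in line 2 (-4.00 ± 0.18 and -2.99 ± 0.16). Ndrg1 fell from 258 to 47.7 and 90.4 CPM and Ddit4, an inhibitor of mTORC1 signalling, from 172 to 45.3 and 115 CPM. Ddr2 rose in the OdG lines too, by 1.40 and 2.80. The EG1 change of Ddit4 was 0.03 ± 0.045 (0.76), while Ndrg1 averaged 65.6 CPM in EG1 wild type and 44.5 in EG1 knockout. The Ndufa4l2 exons overlap those of the member Shmt2 by 32 bases.

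The synthetases of that list, Cars, Eprs, Iars, Lars, Mars and Tars, rose in all 3 knockout groups, by 0.15 to 0.51 in line 1 and by 0.11 to 0.26 in EG1. Of 8 synthetases seldom listed as ATF4 targets, 6 were higher and 0 lower in line 1 and 6 higher and 1 lower in line 2, beside 26.8% and 30% of all genes higher. In EG1 edgeR called 1 of the 8, Farsb, higher by 0.12 (adjusted p 0.041), which is 12.5% beside 7.66% of all genes called. DESeq2 called 0 of them, and at an unadjusted edgeR p below 0.05 there were 3 higher and 0 lower. The median change of this set was 0.22, 0.20 and 0.05 in line 1, line 2 and EG1, beside 0.40, 0.38 and 0.21 for the 6 members. The EG1 change minus the mean OdG change was called positive for 1 and negative for 4 of the set. These shares, 12.5% and 50%, stood beside 19.5% and 20.2% of all genes.

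The next list held the subunits of eIF2, the target of the kinases, and of its exchange factor eIF2B. Of 8 eIF2 and eIF2B subunits, 7 were higher and 0 lower in line 1, 6 higher and 1 lower in line 2, and 0 were called in EG1 with edgeR or DESeq2 (2 had an unadjusted edgeR p below 0.05, both higher). Of all genes 52.8% were called in line 1, 59.9% in line 2 and 7.66% in EG1, so that 0 of 8 in EG1 is near the background. The difference between parental lines was called for 4 of the 8, all negative, beside 20.2% of all genes negative. Eif2b4, a subunit of the exchange factor that phosphorylated eIF2 blocks, rose from 53.1 to 80.1 and 84.1 CPM in the OdG lines (0.60 ± 0.051 and 0.67 ± 0.051) and was 71.7 and 74.1 CPM in EG1 wild type and knockout (0.05 ± 0.049, adjusted p 0.66). Eif2b2 rose by 0.52 and 0.63 and had an EG1 change of 0.00. Of 7 mitochondrial stress genes tested, 3 were higher and 1 lower in line 1, 5 and 1 in line 2, and 0 were called in EG1 with edgeR or DESeq2 (3 were higher at an unadjusted p below 0.05). These shares, 57.1% in line 1 and 0 of 7 in EG1, are near the 52.8% and 7.66% of all genes, and 85.7% in line 2 stands beside 59.9%.

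The arms of the endoplasmic reticulum stress response that do not run through ATF4 had 1 of 19 genes called in EG1 (5.26%, beside 7.66% of all genes), with a median of 0.03. That gene was Dnajb11 (0.15 ± 0.043, adjusted p 0.025), and with DESeq2 0 of the 19 were called. In OdG they split by line, with 10 higher and 5 lower in line 1 and 2 higher and 13 lower in line 2, where 26.8% and 26.1%, and 30% and 29.8%, of all genes were called. Hspa5, the main chaperone of that compartment, averaged 907 CPM in OdG wild type, 980 in line 1 and 703 in line 2, with changes of 0.12 ± 0.027 (0.0014) and -0.36 ± 0.027 (3.3e-09). Between the lines, 13 of the 19 were lower and 1 higher in line 2, beside 19.2% and 18.6% of all genes.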

How the data were processed

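The authors deposited 2 tables of raw read counts per gene symbol, one for the 6 OdG and one for the 6 EG1 libraries. Per the submitters' processing notes they used CASAVA, HISAT2 2.1.0, featureCounts 1.6.4, DESeq2 and mm10, with annotation, strand setting and filters not given in the sources used here. Counts were used as deposited. Genes were filtered with filterByExpr, scaled by TMM and tested with edgeR 4.0.16 (quasi-likelihood, two-sided) in R 4.3.3, with Benjamini-Hochberg adjustment over all genes tested. The 6 OdG libraries shared a fit (14413 genes), the 6 EG1 libraries another (14016), and comparisons between parental lines used all 12 (14977). Printed CPM are TMM-scaled over all 12 libraries. The scripts were tested on simulated data. No pair of replicates differed by as little as sampling noise (chi-square over degrees of freedom, 1.84 to 3.86). Alternatives were DESeq2 1.42.0, RLE and unscaled libraries, no filter, a replicate block, a joint fit, a 1.5-fold minimum and leaving out each library.

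The members and lists were chosen with earlier results of these data known. Values in every library are given for Atf4, Atf3, Ddit3, the kinases and phosphatase subunits, members changed at least 2-fold in a knockout comparison, up to 8 members per direction called alike in all 3 knockout comparisons, and members called oppositely at 1.5-fold or more; other lists name up to 4 genes by size. Exon lengths and overlaps come from the GENCODE annotation of GRCm38. Fgf21 had too few counts, and Jhdm1d and Dele1 were not analysed here.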

Additional observations from a re-analysis of the deposited data

Results flagged for a closer look

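For 29 members the Etl4 knockout change in EG1 differed from the mean change of the 2 OdG lines, by the interaction term of edgeR's quasi-likelihood test over all 12 libraries with Benjamini-Hochberg adjustment over 14977 genes. Values are the EG1 change minus the OdG change on the log2 scale. Among regulators the difference was -0.44 for Eif2ak1, 0.32 for Eif2ak4, 0.62 for Ppp1r15a and 0.16 for Ppp1r15b. Among transcription factors and cofactors it was 0.52 for Atf4, 1.47 for Atf3, 0.30 for Atf5, 1.40 for Ddit3, 1.63 for Cebpb, 0.53 for Nupr1 and 0.61 for Trib3. With line 1 alone as the OdG change, the Atf5 difference was -0.0487 (adjusted p 0.786), and in 5 of the fits without 1 library it was not called (0.0657 to 0.123).

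Among the enzymes the difference was 0.12 for Asns, -0.13 for Psat1, 0.19 for Shmt2, 0.23 for Pck2 and -0.32 for Cth. The other targets Chac1, Vldlr and Stc2 had differences of 1.10, 1.34 and 0.47. Among transporters the values were -0.22 for Slc7a1, -0.66 for Slc7a3, 0.31 for Slc3a2, -0.68 for Slc38a2, 0.24 for Slc1a4 and 0.36 for Slc1a5. Among synthetases they were -0.28 for Aars, -0.19 for Gars, -0.31 for Wars and -0.18 for Yars. Of all genes, 39.8% were called in the same test. With line 1 alone as the OdG change the differences of Ppp1r15b, Asns, Pck2 and Cth were not called (adjusted p 0.0736, 0.194, 0.741 and 0.388). With line 2 alone those of Psat1, Stc2, Slc7a1, Slc1a4 and Yars were not called (0.0549, 0.0676, 0.113, 0.369 and 0.143).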

How the results depend on the processing

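Each member count was recomputed under every alternative. Leaving out 1 library gave 27 to 32 members called in line 1, 29 to 32 in line 2, 24 to 26 in EG1, 28 to 31 for the difference between parental lines, 34 to 37 between wild types, and 13 to 14 between the OdG lines, where all libraries gave 20 and DESeq2 13; a group left with 1 library is assumed to vary like the others. A minimum change of 1.5-fold left 8, 10, 3, 4, 9 and 15 members in line 1, line 2, line 2 against line 1, EG1, the difference between parental lines and the wild types. With library totals alone, 32.2% of all EG1 calls were higher in place of 47%, and the members stood at 26 higher and 0 lower. Same-numbered libraries did not deviate together (correlations -0.007 to 0.028 in OdG and -0.05 to -0.021 in EG1), and with the replicate number as a block the counts were 32, 32, 19, 26, 29 and 37. Of 2899 member values recomputed, 2772 kept their side of the threshold and, where called, their direction. A call was lost for 100 and gained for 25, and 2 turned. Direction was not compared where neither fit made a call. Those that turned were the Atf5 difference between parental lines with line 1 alone (-0.0487, adjusted p 0.786) and Cebpb between wild types without the first OdG wild-type library (-0.369). Over the fits without 1 library that Cebpb value ran from -0.369 to 0.807. The cause was not tested. Each group has 2 or 3 libraries, which limits the precision of every value.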
